A study of Drosophila melanogaster with 4 samples.

Results

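mir-7 is a single Drosophila miRNA gene whose hairpin gives miR-7-5p from its 5′ arm and miR-7-3p from its 3′ arm. Its members here are the 2 rows of the deposited table named for mir-7, 1 for each arm, of 495 rows in all. Both rows had values in each of the 4 small RNA libraries, and both arms passed a minimum of 100 reads in every library, as did 114 of the 261 miRNA arms given in all of them. The libraries came from Schneider 2 (S2) cells, a Drosophila line of embryonic origin, in which CRISPR-Cas9 had been used to remove Nibbler (Nbr). Nibbler is a 3′-to-5′ exonuclease that shortens miRNAs bound to Argonaute.

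The groups by genotype were Act5C>Nbr(wt); nbrKO, then Act5C>NbrCTD; nbrKO, then Act5C>NbrCTD-GWp; nbrKO, and nbrKO alone, with 1 library each. They are called Nbr(wt), NbrCTD, NbrCTD-GWp and nbrKO here. All 4 share the loss of Nbr, and the constructs, carried stably, ran from the Act5C driver; the sample titles call them overexpressed. The labels spell out neither CTD nor GWp and do not say whether the knockout line was 1 clone. Cells with Nbr intact, or knockout cells with an empty construct, are not among the 4 libraries. The comparisons ask how mir-7 with each construct differed from mir-7 in nbrKO. No difference has a replicate check, no test could be run, and every interval covers counting error only.

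miR-7 is among the most conserved animal miRNAs. In flies it promotes photoreceptor fate by repressing the transcription factor Yan downstream of EGF receptor signalling, and it represses Notch target genes of the Enhancer of split and Bearded families through the GY box in their transcripts. The miRNA is cut from its hairpin by Drosha and Dicer-1, after which Argonaute keeps the guide strand and the passenger strand is mostly lost. The guide's 3′ end can then be trimmed by Nbr or extended by nucleotides absent from the genome, which are called tails.

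In the Ensembl annotation of BDGP6, mir-7 lies on chromosome arm 2R, from 20606067 to 20606154 on the plus strand, a span of 88 bases. It lies in an intron of HnRNP-K, also called bancal, which encodes an RNA-binding protein: no exon of the host's 6 annotated transcripts overlaps it, and the nearest exons bound the stretch from 20605933 to 20606443. The deposited position of miR-7-5p does not fall within this annotated gene, and the deposited positions, whose build is not given in the sources used here, are used only for distances. In them the 5′ ends of the arms lie 40 bases apart, and the nearest other arm given in all libraries belongs to mir-992, 20.7 kb away. No other row shares the seed of either mir-7 arm, so its reads are not split with a relative of the same seed.

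The totals behind the deposited values were 32488012 reads for Nbr(wt), 26500155 for NbrCTD, 27312149 for NbrCTD-GWp and 24005045 in nbrKO, of which 53.2% to 63.2% fell in the 261 arms. The 15 listed miRNAs common in S2 cells made up 819633, 775904 and 811274 miRNA RPM with Nbr(wt), NbrCTD and NbrCTD-GWp, and 772533 in nbrKO, where miRNA RPM is the deposited RPM rescaled to the reads of the 261 arms. Of 21 listed markers of other cells (muscle, neurons, ovary, testis, the early embryo, and larval or adult tissue) 16 had a value in every library, and only miR-6-3p and miR-318-3p had at least 100 reads in each. The summed level of the 16 was 174, 160 and 145 miRNA RPM with Nbr(wt), NbrCTD and NbrCTD-GWp, against 254 in nbrKO. Most of it was miR-318-3p, at 121, 100 and 88.9 with the constructs in that order, and 142 in nbrKO. The sum was lower with each construct, where miR-7-5p was higher, and its part in the results was not tested. None of the 16 was at 0 in any library.

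The guide arm, miR-7-5p, was more abundant with every construct than in nbrKO, and past the call threshold with Nbr(wt) and NbrCTD-GWp. A call of abundance required a change of 2-fold or more in log2(miRNA RPM + 1) and exact Poisson intervals that did not overlap. With Nbr(wt), miR-7-5p had 32990 reads, or 1680 miRNA RPM (95% interval 1662 to 1698). With NbrCTD it had 14993 reads, or 1037 miRNA RPM (1021 to 1054). With NbrCTD-GWp it had 46174 reads, or 2676 miRNA RPM (2651 to 2700.2). In nbrKO it had 8770 reads, or 686 miRNA RPM (672 to 701). No 2 libraries overlapped in their intervals, and the order, high to low, was NbrCTD-GWp, Nbr(wt), NbrCTD, nbrKO.

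Against nbrKO, miR-7-5p was 2.45-fold higher in the Nbr(wt) library, 1.51-fold higher with NbrCTD and 3.90-fold higher with NbrCTD-GWp. The log2 differences were 1.29, 0.60 and 1.96, beside medians over the 114 arms of -0.34, -0.08 and -0.19. Arms called higher made up 7.02% of the 114 with Nbr(wt), 9.65% with NbrCTD, where miR-7-5p was not among them, and 7.89% with NbrCTD-GWp. Arms called lower made up 21.9%, 13.2% and 14.9%. These counts depend on the scaling: for Nbr(wt), 8 arms were higher and 25 lower with total miRNA reads, against 14 and 12 with trimmed means. Ordered from the largest rise, miR-7-5p held place 6 of 114 for Nbr(wt), 23 for NbrCTD and 4 for NbrCTD-GWp. These 3 differences share the nbrKO library. In level, miR-7-5p ranked 38, 43 and 35 of 261 arms with Nbr(wt), NbrCTD and NbrCTD-GWp, and 54 in nbrKO. Other ways of scaling the libraries kept both calls and shifted the differences from nbrKO by -0.11 to 0.36 log2. In cell populations such as these, more cells holding a miRNA and more copies of it per cell cannot be told apart.

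**Figure D1:**
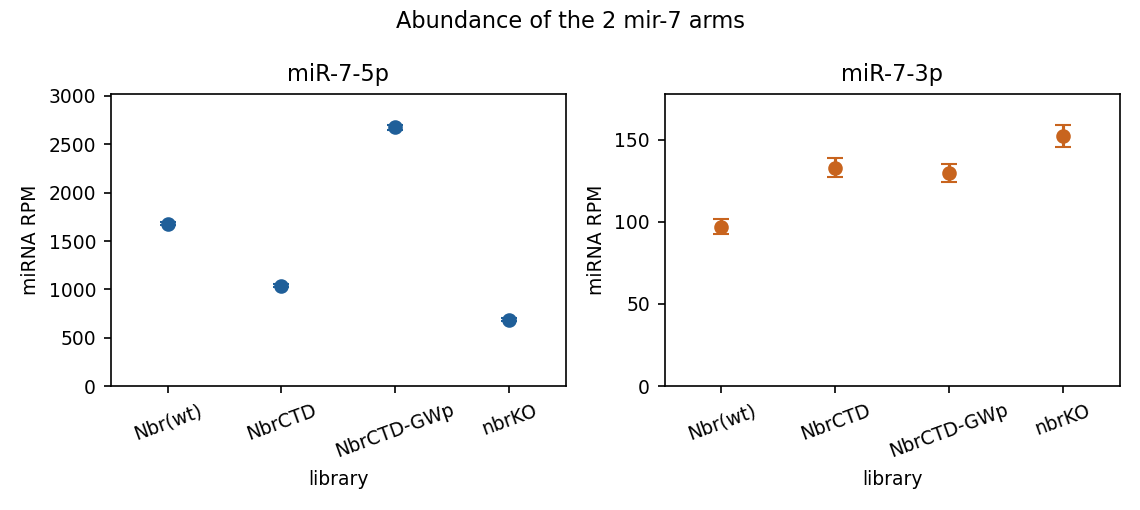
Abundance in miRNA RPM (RPM rescaled to the reads of the 261 arms) of miR-7-5p and miR-7-3p in each of the 4 libraries; points are single libraries, bars are exact Poisson 95% intervals, and the panels have different scales from 0. miR-7-5p reached 2676 with NbrCTD-GWp, against 686 in nbrKO, while miR-7-3p lay between 97.1 with Nbr(wt) and 152 in nbrKO.

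The passenger arm, miR-7-3p, did not follow its guide. It had 1907 reads, or 97.1 miRNA RPM (92.8 to 102), with Nbr(wt), and 1922 reads, or 133 miRNA RPM (127 to 139), with NbrCTD. It had 2239 reads, or 130 miRNA RPM (124 to 135), with NbrCTD-GWp, and 1943 reads, or 152 miRNA RPM (145 to 159), in nbrKO. All 3 constructs lay below nbrKO, none by as much as 2-fold, and NbrCTD and NbrCTD-GWp overlapped each other. The log2 differences from nbrKO were -0.64 for Nbr(wt), -0.19 for NbrCTD and -0.23 for NbrCTD-GWp, beside the medians of -0.34, -0.08 and -0.19 over all arms. With the authors' RPM, the difference of NbrCTD-GWp from nbrKO was 0.02.

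The share of the passenger arm among the reads of both arms does not depend on how libraries are scaled, and it was lower with every construct than in nbrKO. miR-7-3p made up 5.46% of 34897 reads with Nbr(wt) (exact Clopper-Pearson 95% interval 5.23 to 5.71). It made up 11.4% of 16915 reads with NbrCTD (10.9 to 11.9) and 4.62% of 48413 reads with NbrCTD-GWp (4.44 to 4.82). In nbrKO it made up 18.1% of 10713 reads (17.4 to 18.9). None of the 4 intervals overlapped. Put as guide reads for each passenger read, the ratio was 17.3 for Nbr(wt), 7.80 for NbrCTD, 20.6 for NbrCTD-GWp and 4.51 in nbrKO.

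Against nbrKO, the log2 odds ratio of the passenger share was -1.94 (-2.04 to -1.84) for Nbr(wt), -0.79 (-0.89 to -0.69) for NbrCTD and -2.19 (-2.29 to -2.10) for NbrCTD-GWp. A lower passenger share was common: of 46 hairpins with at least 100 reads of both arms in every library, 65.2%, 56.5% and 50.0% were called lower and 13.0%, 32.6% and 21.7% higher, with medians of -0.65, -0.50 and -0.21. Ordered from the largest fall, mir-7 held place 3 of 46 for Nbr(wt), 14 for NbrCTD and 1 for NbrCTD-GWp. With NbrCTD-GWp its passenger share stood at place 25 from the top, below the median of 5.79%, and in nbrKO at place 11, above the median of 8.66%.

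**Figure D2:**
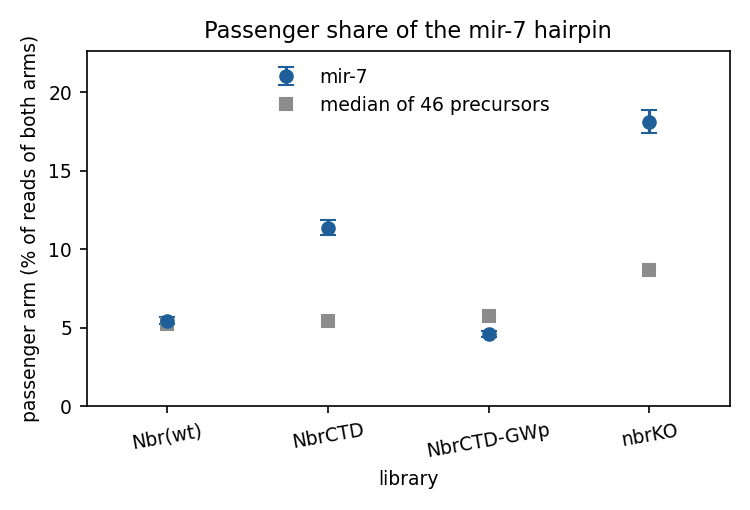
Passenger arm as a percent of the reads of both arms in each library, for mir-7 (circles, bars are exact Clopper-Pearson 95% intervals) and as the median of 46 hairpins (squares). mir-7 stood at 5.46% for Nbr(wt), 11.4% for NbrCTD and 4.62% for NbrCTD-GWp, against 18.1% in nbrKO.

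Few reads of miR-7-5p carried a tail in any library. The table gives reads under the headings GM and PM, read here as reads that match the genome throughout and reads that match up to an added tail; the tailed share is PM over both. miR-7-5p had 204 tailed of 32990 reads with Nbr(wt), a share of 0.618% (0.537 to 0.709). It had 94 of 14993 with NbrCTD, or 0.627% (0.507 to 0.767), and 458 of 46174 with NbrCTD-GWp, or 0.992% (0.904 to 1.09). In nbrKO it had 60 of 8770, or 0.684% (0.522 to 0.880). The NbrCTD-GWp library stood above the other 3, which overlapped.

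Of the differences from nbrKO, that of NbrCTD-GWp met the call rule, that intervals do not overlap, and those of Nbr(wt) and NbrCTD did not. Its log2 odds ratio was 0.53 (0.14 to 0.92), and the intervals overlapped at the 99% level. The log2 odds ratio was -0.16 (-0.57 to 0.26) with Nbr(wt) and -0.13 (-0.60 to 0.34) with NbrCTD, and neither was called. Over the 114 arms the medians were -0.53 for Nbr(wt), -0.18 for NbrCTD and -0.45 for NbrCTD-GWp. A higher share was called in 5.26%, 18.4% and 7.02% of arms with Nbr(wt), NbrCTD and NbrCTD-GWp, and a lower one in 48.2% for Nbr(wt), 32.5% for NbrCTD and 44.7% for NbrCTD-GWp. In order from the lowest tailed share, miR-7-5p held place 4, 4 and 19 of 114 with Nbr(wt), NbrCTD and NbrCTD-GWp, and place 6 in nbrKO. Its tailed reads as such came to 10.4, 6.50 and 26.5 miRNA RPM with Nbr(wt), NbrCTD and NbrCTD-GWp, and 4.69 in nbrKO.

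miR-7-3p had fewer tailed reads in number than miR-7-5p, and no pair of libraries was called different. It had 25 tailed reads with Nbr(wt), a share of 1.31% (0.850 to 1.93), and 28 with NbrCTD, a share of 1.46% (0.970 to 2.10). It had 13 with NbrCTD-GWp, or 0.581% (0.310 to 0.991), and 17 in nbrKO, or 0.875% (0.510 to 1.40). The order of the libraries was not that of its guide: NbrCTD-GWp was lowest for miR-7-3p and highest for miR-7-5p. In share, miR-7-3p lay above miR-7-5p except with NbrCTD-GWp. The intervals of the arms overlapped in nbrKO and with NbrCTD-GWp. For NbrCTD-GWp against NbrCTD the log2 odds ratio was -1.31 (-2.25 to -0.37), and Wilson intervals did not overlap. For NbrCTD-GWp against Nbr(wt) it was -1.16 (-2.12 to -0.20), and Wilson intervals overlapped.

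**Figure D3:**
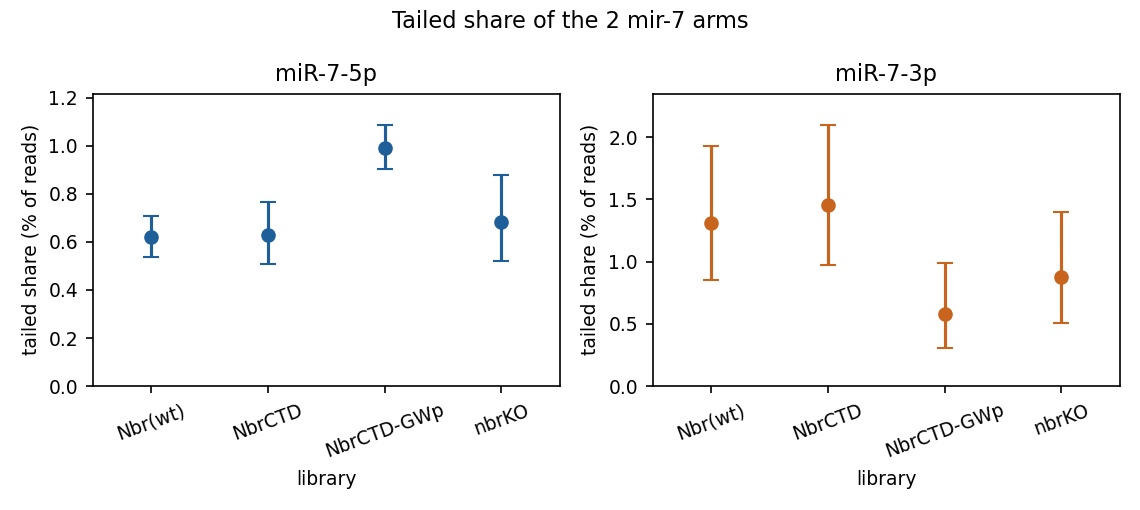
Tailed share (PM reads over GM and PM reads, in percent) of each mir-7 arm in the 4 libraries; points are single libraries and bars are exact Clopper-Pearson 95% intervals. For miR-7-5p the 0.992% of NbrCTD-GWp stood above the other libraries, and for miR-7-3p every interval met every other.

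Reported Nbr substrates are a list of 10 arms recalled from background knowledge, of which 7 had at least 100 reads in every library. Among these 7, miR-7-5p had the lowest tailed share in every library. The values used here give no read lengths, so trimming by Nbr was not measured. Of the 3 with fewer reads, miR-3-3p had no tailed read of 120 with Nbr(wt) or of 128 in nbrKO. The median share of the 7 was 3.27%, 7.32% and 3.33% with Nbr(wt), NbrCTD and NbrCTD-GWp, and 6.88% in nbrKO. With Nbr(wt), 5 of the 7 were called lower than in nbrKO and none higher, with NbrCTD 4 and none, and with NbrCTD-GWp 5 and 1, the last being miR-7-5p. Over the 114 arms, 48.2%, 32.5% and 44.7% were called lower in these comparisons and 5.26%, 18.4% and 7.02% higher. The median log2 odds ratios of the 7 substrates were -1.38, -0.41 and -1.01, beside -0.53, -0.18 and -0.45 over the 114 arms. Next above miR-7-5p in nbrKO came miR-11-3p, whose host gene is the cell cycle regulator E2f1, at 2.17%, 3.85% and 2.37% with Nbr(wt), NbrCTD and NbrCTD-GWp, and 4.02% in nbrKO. miR-317-3p, the most tailed of the list in nbrKO, had 4.68%, 7.72% and 5.94% with the constructs in the same order, against 11.3% in nbrKO.

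In abundance miR-7-5p was the 1 member called higher with Nbr(wt) and with NbrCTD-GWp. The 1 member called lower, with each construct, was miR-263a-5p, which protects sensory bristles from cell death. It had 69.2, 55.6 and 66.3 miRNA RPM with Nbr(wt), NbrCTD and NbrCTD-GWp, and 176 in nbrKO. Among all 114 arms, 7.02%, 9.65% and 7.89% were called higher with Nbr(wt), NbrCTD and NbrCTD-GWp, and 21.9%, 13.2% and 14.9% lower. The medians of the list were -0.57, -0.46 and -0.30 on the log2 scale.

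**Figure D4:**
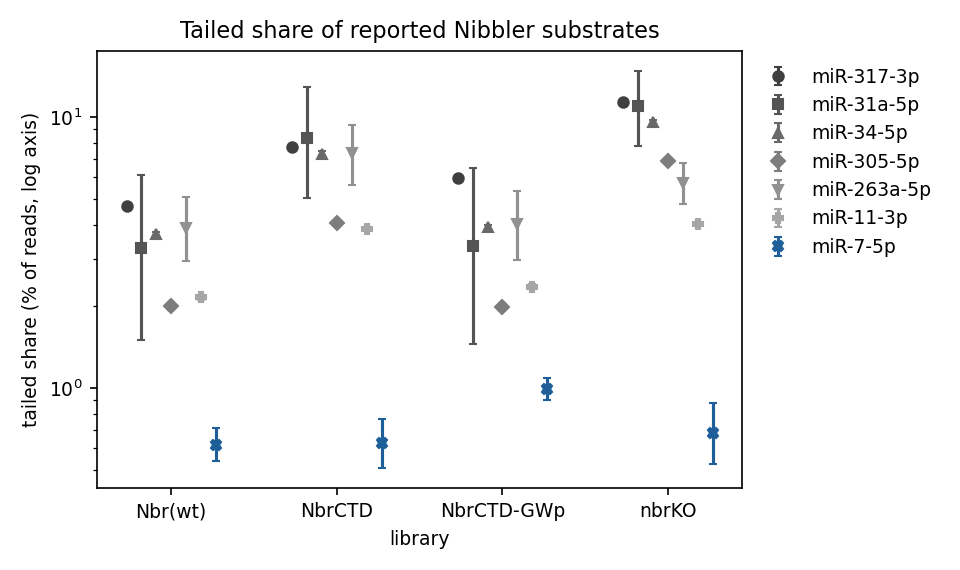
Tailed share on a log axis of the 7 reported Nbr substrates with at least 100 reads in every library; points are single libraries and bars are exact Clopper-Pearson 95% intervals. miR-7-5p, at 0.618% to 0.992%, lay below the other 6 arms in every library.

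The constructs were also set against each other, without nbrKO. NbrCTD-GWp, against NbrCTD, gave 2.58-fold more miR-7-5p (2.53 to 2.63), a call that 3.51% of the 114 arms shared. Its tailed share was higher too, with a log2 odds ratio of 0.66 (0.34 to 0.98), where 3.51% of arms were called higher and 35.1% lower. The passenger share was lower, with a log2 odds ratio of -1.40 (-1.49 to -1.31), as it was called in 43.5% of hairpins, with 32.6% called higher. NbrCTD, against Nbr(wt), gave 0.617-fold as much miR-7-5p (0.606 to 0.629), short of a call, and 0.877% of arms were called lower. Its passenger share was higher, with a log2 odds ratio of 1.15 (1.05 to 1.24), as in 63.0% of hairpins, with 23.9% called lower. Its tailed share differed by 0.02 log2 odds (-0.33 to 0.38), where 39.5% of arms were called higher and 0.877% lower. NbrCTD-GWp, against Nbr(wt), gave 1.59-fold more miR-7-5p (1.57 to 1.62), short of a call that 5.26% of arms reached. Its tailed share was higher by 0.69 log2 odds (0.45 to 0.92), where 20.2% of arms were called higher and 10.5% lower. Its passenger share was lower, with a log2 odds ratio of -0.25 (-0.34 to -0.16), where 8.70% of hairpins were called lower and 65.2% higher. miR-7-3p was called in abundance in none of these pairs.

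The 5′ end sets the seed of a miRNA and so its targets. The table gives the share of each arm's reads that start at the listed 5′ end, and dividing the reads by it gave a whole number of reads for both mir-7 arms in every library. For miR-7-5p, reads with other 5′ ends made up 1.69% of 33558 with Nbr(wt) (1.56 to 1.84), 2.28% of 15343 with NbrCTD (2.05 to 2.53) and 1.81% of 47025 with NbrCTD-GWp (1.69 to 1.93), and 2.01% of 8950 in nbrKO (1.73 to 2.32). No construct was apart from nbrKO, while NbrCTD was above Nbr(wt) and NbrCTD-GWp. A share of the listed 5′ end lower with NbrCTD than Nbr(wt) was called in 16.7% of arms, and 14.0% were called higher with NbrCTD-GWp than NbrCTD.

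For miR-7-3p, other 5′ ends were more frequent with every construct than in nbrKO. They made up 18.5% of 2339 reads with Nbr(wt) (16.9 to 20.1), 17.0% of 2316 with NbrCTD (15.5 to 18.6) and 15.9% of 2661 with NbrCTD-GWp (14.5 to 17.3), and 12.1% of 2211 in nbrKO (10.8 to 13.6). The 3 construct libraries overlapped each other and none overlapped nbrKO. The log2 odds ratios of the listed 5′ end were -0.71, -0.57 and -0.45, and a lower share was called in 17.5%, 22.8% and 20.2% of the 114 arms, with medians of -0.02, -0.11 and -0.03. Reads of miR-7-3p with other 5′ ends came to 22.0, 27.3 and 24.5 miRNA RPM with Nbr(wt), NbrCTD and NbrCTD-GWp, and 21.0 in nbrKO. Which 5′ ends these reads have was not analysed here.

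**Figure D5:**
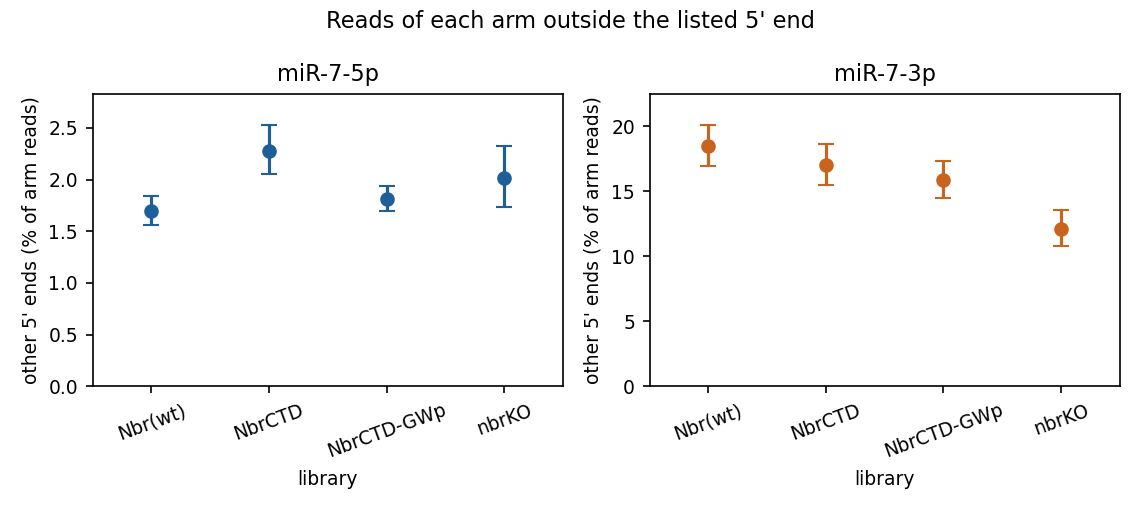
Share of each arm's reads that start outside the listed 5′ end, in percent, for both mir-7 arms in the 4 libraries; points are single libraries, bars are exact Clopper-Pearson 95% intervals, and the panels have different scales from 0. For miR-7-3p the constructs lay at 15.9% to 18.5%, above the 12.1% of nbrKO.

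Families of miRNAs that repress Notch target genes through short boxes in their transcripts comprise the GY box family, which is miR-7, the Brd box family of miR-4 and miR-79, and the K box family. Of 11 listed arms 10 had enough reads. In abundance, miR-7-5p was the 1 arm called higher with Nbr(wt) and with NbrCTD-GWp, and miR-79-3p the 1 called higher with NbrCTD, at 2040 miRNA RPM against 878 in nbrKO. The embryonic miR-6-3p was called lower with Nbr(wt) and NbrCTD-GWp, at 22.5 and 20.5 miRNA RPM, against 48.4 in nbrKO. Higher calls in abundance covered 7.02%, 9.65% and 7.89% of the 114 arms with Nbr(wt), NbrCTD and NbrCTD-GWp, and lower calls 21.9%, 13.2% and 14.9%. The family medians were 0.19, -0.23 and 0.16 on the log2 scale. In tailed share 5, 4 and 5 of the 10 were called lower and 1, 2 and 2 higher with Nbr(wt), NbrCTD and NbrCTD-GWp, beside 48.2%, 32.5% and 44.7% lower and 5.26%, 18.4% and 7.02% higher over the 114 arms, so the family's share of lower calls lay near that of all arms. miR-79-3p was also sparsely tailed, at 0.556%, 0.522% and 0.575% with Nbr(wt), NbrCTD and NbrCTD-GWp, and 0.526% in nbrKO. Members of the miR-2 and miR-13 family can share reads, so their single values are uncertain.

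Of 14 guides from introns of protein-coding genes, all had enough reads, and 4 were called higher in abundance with each construct, where 7.02%, 9.65% and 7.89% of the 114 arms were called higher. With Nbr(wt) and NbrCTD-GWp these were miR-7-5p, miR-92a-3p and miR-92b-3p from jigr1, and miR-9b-5p from grapes. With NbrCTD, miR-79-3p, also from grapes, stood in place of miR-7-5p. Several of the 14 guides share a host gene, so their calls are not independent of each other. miR-9b-5p had 3398, 2704 and 3465 miRNA RPM with Nbr(wt), NbrCTD and NbrCTD-GWp, and 1038 in nbrKO. The 1 called lower was miR-998-3p from E2f1, with Nbr(wt), at 2448 miRNA RPM against 5111 in nbrKO. Lower calls covered 21.9%, 13.2% and 14.9% of the 114 arms with Nbr(wt), NbrCTD and NbrCTD-GWp. The group medians were 0.22, 0.33 and 0.33 on the log2 scale. The host transcripts were not measured in these libraries.

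The arms nearest to miR-7-5p in abundance pattern over the 4 libraries were miR-12-5p, miR-184-3p and miR-9b-5p, with root mean square distances of 0.35, 0.37 and 0.39 in centred log2 abundance. miR-12-5p, which comes from an intron of Gmap, had 1190.5, 777 and 1316 miRNA RPM with Nbr(wt), NbrCTD and NbrCTD-GWp, and 671 in nbrKO. It held the same order of libraries as miR-7-5p over a narrower range, and miR-184-3p and miR-9b-5p held that order too. For miR-7-3p the nearest were miR-317-3p, miR-2a-1-5p and miR-996-5p, at distances of 0.04, 0.07 and 0.10. In tailing level, averaged as log2 odds over the 4 libraries, the arms nearest to miR-7-5p were miR-276a-5p, whose reads are identical to those given for miR-276b-5p, bantam-5p and miR-276a-3p. miR-276a-5p had 0.692%, 0.759% and 0.850% with Nbr(wt), NbrCTD and NbrCTD-GWp, and 0.663% in nbrKO. For miR-7-3p the nearest were miR-6-3p, miR-12-5p and miR-33-3p. miR-6-3p, with 353 to 619 reads a library, was alike in the average only. It had 2.04%, 0.833% and 0.283% with Nbr(wt), NbrCTD and NbrCTD-GWp, and 1.13% in nbrKO, in another order of libraries than miR-7-3p.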

How the data were processed

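Small RNA of 18 to 30 nt was sequenced from 4 libraries, per the labels' protocols from 25 µg of total RNA depleted of 2S rRNA, with 4 random bases at the adapter ends. Cutadapt 1.2.1 and HTSeq 0.9.1 are listed, with no role, in the submitters' processing notes; the aligner, genome build and counting rule were not given in the sources used here. The authors' deposited table gives RPM under GM and PM, which the headers do not spell out, and the fraction of an arm's reads at the listed 5′ end, per the file headers.

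Nearly all RPM values (94.4% to 95.7% of those above 0) were whole multiples of 1 step per library, within 0.01 read, and were divided by it to give reads, rounded for intervals. Reads were needed only as depth: with 1 library a group no count model was fitted. The 270 rows with values in every library were joined into 261 arms by name and seed; of 2 names with identical values 1 was dropped. Shares have exact Clopper-Pearson intervals and levels exact Poisson intervals, at 95%. They cover counting error only and treat reads as independent molecules, which reads are not, so they may be too narrow. Log2 odds ratios had 0.5 reads added to each kind of read, with Wald intervals, and fold intervals are Wald intervals from the reads. Abundance differences used log2(miRNA RPM + 1), which understates changes of rare arms. Alternative scalings were the deposited RPM, median-of-ratios factors, means trimmed by 30% at each end and the total without the top arm. The tailed-share calls and the read step were tested on simulated data. The simulated tailed shares held counting error only, at the depth of nbrKO on both sides. They therefore cannot show how the calls behave under spread between libraries. Named arms were both mir-7 arms, the 3 nearest by each likeness among arms with at least 100 reads, and members of the lists; list members were named after their values were seen. Members and lists were chosen with earlier results of these data known. The name bft in the table was matched to miR-263a through RefSeq's gene table. The sequence of mir-7 is not reported here. Python 3.11.15, SciPy 1.17.1 and pandas 2.3.3 were used.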

Additional observations from a re-analysis of the deposited data

How the results depend on the processing

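For mir-7, other scalings, pseudocounts, genome-matching reads only, whole-arm reads and other intervals left each direction that was called, and its side of the call rule, as they were, with 2 exceptions. With 99% intervals the higher tailed share of miR-7-5p with NbrCTD-GWp than in nbrKO (log2 odds ratio 0.53) was no longer called. With Wilson intervals the lower share of miR-7-3p with NbrCTD-GWp than with NbrCTD (-1.31) was called. Each arm of mir-7 had 1 listed 5′ isoform, so summing isoforms changed nothing. The log2 difference of miR-7-5p from nbrKO ranged over settings from 1.28 to 1.65 for Nbr(wt), 0.49 to 0.69 for NbrCTD and 1.92 to 2.21 for NbrCTD-GWp. That of miR-7-3p ranged from -0.66 to -0.28, from -0.30 to -0.10 and from -0.27 to 0.02. Trimmed means shifted all differences from nbrKO by 0.36 for Nbr(wt), 0.06 for NbrCTD and 0.16 for NbrCTD-GWp. They gave 14 arms higher and 12 lower with Nbr(wt), against 8 and 25 with total miRNA reads. For NbrCTD the total without the top arm gave 9 and 19, against 11 and 15, and for NbrCTD-GWp the deposited RPM gave 11 and 11, against 9 and 17. The number of arms called in abundance against nbrKO, 33, 26 and 26 with Nbr(wt), NbrCTD and NbrCTD-GWp, was 57, 46 and 46 with at least 1 read in every library, where more arms were tried, and 17, 15 and 14 with at least 1000. Whole-arm reads and the wider interval for 5′ ends were alternatives chosen after seeing the data. No paired analysis was possible because each group held 1 library. Depth limits the tails of miR-7-3p most, at 13 to 28 tailed reads a library.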
